A study of Mus musculus with 6 samples.

Results

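The genes described here are Myc and Mycn, the D-type cyclins Ccnd1, Ccnd2 and Ccnd3, their kinase partners Cdk4 and Cdk6, and the inhibitors Cdkn1a, Cdkn1b and Cdkn1c, which together govern passage through the G1 phase of the cell cycle. They were chosen by name, and every probe set whose platform annotation names one of them and no other gene was taken. All 10 had such a probe set, 28 in all, out of 34945 single-gene probe sets for 18193 genes on the array. None of the 10 genes passed the test between mutant and wild-type cells. By the brightest probe set of each gene, the largest difference was that of Cdkn1b, at 1.30-fold. Some further probe sets differed more, as in Cdkn1a (1.44-fold) and Cdk6 (0.747-fold), and none of the 28 passed.

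The study compared YFP-positive cells sorted from mouse embryos at embryonic day 9.0, with 3 arrays of mutant (MUT) and 3 of wild-type (WT) cells. MUT embryos carried Isl1-cre, the Rosa-YFP reporter and a β-catenin allele with loxP sites around exon 3, from which Cre makes a stabilised protein. For WT embryos the labels list no alleles, but their cells were sorted on YFP too, and the series' design text describes both as marked through the Isl1-cre domain. The allele is therefore switched on wherever Isl1-cre has acted, and whether a sample pools embryos is not stated. Nothing in the labels ties an array to one embryo or litter, so the p-values cover only variation among these 6 arrays, part of which may be technical.

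D-type cyclins bind CDK4 and CDK6, and the complex phosphorylates the retinoblastoma protein, which releases E2F transcription factors and lets the cell enter S phase. MYC and MYCN are transcription factors that raise ribosome production and G1 progression, while the proteins of Cdkn1a (p21), Cdkn1b (p27) and Cdkn1c (p57) bind cyclin-CDK complexes and restrain them. MYC and cyclin D1 are textbook targets of β-catenin with TCF/LEF factors, mainly from work in human colon cancer cells. The comparison asks how the levels of these genes stand in cells with stabilised β-catenin.

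Values are log2 intensities, 1 per probe set and array, and differences are MUT minus WT on that scale. The brightest probe set stood for a gene, and all genes were tested together with limma, with Benjamini-Hochberg adjustment over 18193 genes and a threshold of 0.05. Arrays were alike in distribution, with medians from 6.47 to 6.50. They correlated across genes at 0.985 to 0.987 within MUT, 0.986 to 0.989 within WT and 0.979 to 0.987 between the groups. The 95th percentile of 27 bacterial control probe sets, 4.85, was used as a rough background level, and all 10 genes lay above it. Of 12 markers of cardiac progenitors and cardiomyocytes all 12 had lower averages in MUT, but 0 were called. Isl1 itself averaged 8.27 in MUT and 9.46 in WT cells (limma adjusted p = 0.269). Nkx2-5 averaged below the background level in both groups, at 4.36 and 4.82, although WT arrays 1 and 2 read 4.89 and 4.95. Tnnt2 (10.14 in MUT and 10.90 in WT) and Actc1 (10.57 and 10.86) were far above that level. Y-linked transcripts differed among the arrays. The mean of Kdm5d, Eif2s3y and Uty was 8.09, 9.12 and 8.33 on MUT arrays 1, 2 and 3 and 9.08, 3.33 and 3.43 on WT arrays 1, 2 and 3, so that WT arrays 2 and 3 stood apart. Xist read 12.13, 7.54 and 12.44 on the MUT arrays and 5.46, 12.63 and 12.79 on the WT arrays, in the same order. MUT arrays 1 and 3 were thus high for both Xist and the Y-linked genes, and the reason was not tested.

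The differences of the 10 genes were of the size common on the array. The median size of their differences, whatever the sign, was 0.17 on the log2 scale, against 0.16 for all genes, and the median standard error was 0.163 for both. With the sign kept, 3 of the 10 were higher and 7 lower in MUT, with a median of −0.10, while 44.7% of all genes were higher and the median over all genes was −0.03. With limma and Benjamini-Hochberg adjustment 0 of the 10 were called (smallest adjusted p = 0.465), and 0 had an unadjusted p under 0.05. Over all genes 12 were called, or 0.066%, and 11.6% had an unadjusted p under 0.05. The smallest difference among those 12 called genes was 1.13, larger than any difference among the 10. The MUT and WT values did not overlap for 1 of the 10 genes (Cdkn1b), against 17.8% of all genes (8.64% higher and 9.18% lower in MUT). With all 28 probe sets in a fit over 34945, 0 were called and 0 had an unadjusted p under 0.05 (smallest adjusted p = 0.440), where 8 of all probe sets, or 0.0229%, were called. Because sorted cells were measured in bulk, a lower value may mean fewer cells of a kind or less RNA per cell, and the arrays cannot tell these apart.

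**Figure D1:**
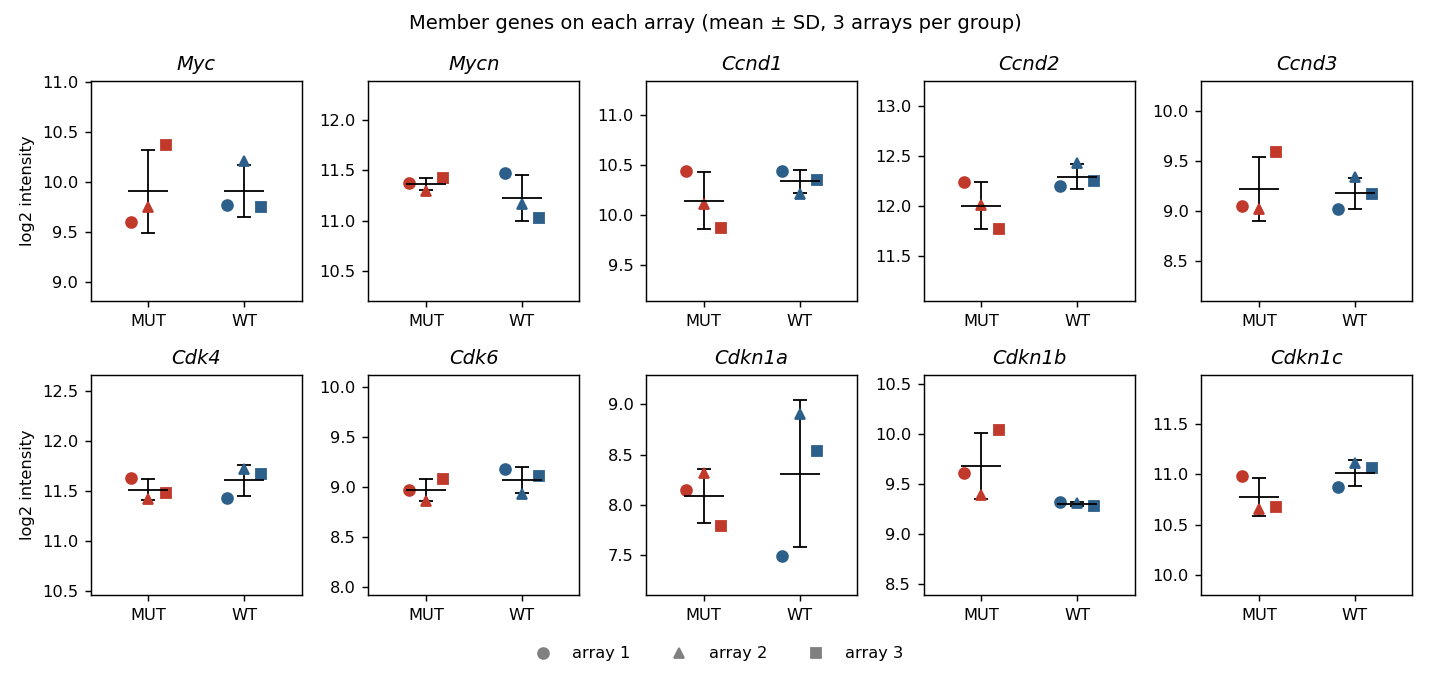
Log2 intensity (vertical axis, the same span in every panel) of the brightest probe set of each of the 10 genes on the 3 MUT (red) and 3 WT (blue) arrays, with the mean and SD as bars. The groups overlap in every panel except that of Cdkn1b, whose WT arrays lie between 9.28 and 9.31.

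Of the 2 MYC family members, Myc had 1 probe set. It read 9.60, 9.75 and 10.38 on the MUT arrays, against 9.78, 10.21 and 9.75 on the WT arrays. One MUT array and one WT array stood high, and the others lay close together. The means were 9.91 ± 0.41 in MUT and 9.91 ± 0.26 in WT cells (SD, n = 3 each), a difference of −0.00 with a 95% interval of −0.55 to 0.54 from limma. In linear terms the interval runs from 0.684-fold to 1.45-fold, so a change of Myc beyond those bounds lies outside it while a smaller one does not. Leaving out single arrays moved the difference between −0.24 and 0.15.

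Mycn, the family member best known in embryonic progenitors, was measured by 3 probe sets. The brightest read 11.37, 11.30 and 11.42 in MUT, against 11.47, 11.17 and 11.02 in WT. The MUT arrays fell within the WT range, whose top was WT array 1. The difference was 0.14 (SE 0.15, limma adjusted p = 0.724), and it was 0.27 without WT array 1 and 0.0434 without WT array 3. The next in brightness read 10.12, 9.94 and 10.12 in MUT and 9.65, 9.94 and 9.52 in WT, where the lowest MUT and the highest WT values nearly coincide. Its difference of 0.35 (95% interval −0.00 to 0.71) had the smallest unadjusted p of the 28 probe sets, at 0.0514, and an adjusted p of 0.440 from limma. The dimmest averaged 4.48 in MUT and 4.46 in WT, below the background level, and gives no measure of the gene.

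The promoters of 6 of the 10 genes, in 8 windows, were found in a RefSeq table of build GRCm38.p6, each window running from 250 bases before a start site to 50 after it, and Myc, Ccnd1, Ccnd2 and Cdkn1c had no entry. Each window was searched on both strands for the E-box CACGTG that MYC binds, the TCF/LEF core CTTTGA, the E2F forms TTTCGCGC, TTTGGCGC, TTTCCCGC and TTTGCCGC, and 2 copies of CATG with 6 bases between them, as found in p53 sites. Of all 32851 promoter windows, 7.15% held the E-box, 16% the TCF/LEF core, 2.26% an E2F form and 0.712% the CATG pair. The window of Mycn (chr12:12941787-12942086, minus strand) is shown because it holds letters of both the Wnt effector and the E2F factors: 3 E2F matches, the first and second overlapping, and 1 TCF/LEF core that begins at position −13 from the start site, all in capitals.
Mycn: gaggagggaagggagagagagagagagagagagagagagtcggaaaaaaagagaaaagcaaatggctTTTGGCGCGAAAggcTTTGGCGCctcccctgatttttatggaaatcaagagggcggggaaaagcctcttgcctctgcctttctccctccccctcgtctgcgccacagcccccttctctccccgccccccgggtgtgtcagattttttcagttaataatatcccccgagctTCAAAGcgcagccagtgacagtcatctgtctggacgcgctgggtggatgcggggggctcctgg
A match is a description of the letters, and binding was not measured.

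Among the D-type cyclins, the activating partners of CDK4 and CDK6, Ccnd2 had the lowest p among the members lower in MUT. Its brightest probe set read 12.24, 12.01 and 11.77 on the MUT arrays, against 12.20, 12.43 and 12.25 on the WT arrays. MUT array 1 lay within the WT range and the other MUT arrays below it. The difference was −0.29 (0.820-fold, SE 0.16, 95% interval −0.65 to 0.08, limma adjusted p = 0.517). Without MUT array 1 it was −0.40 (adjusted p = 0.304), and without MUT array 3 it was −0.17 (adjusted p = 0.793). The 7 probe sets of Ccnd2 did not share a direction: 5 were lower and 2 higher in MUT, from −0.29 to 0.25. The brightest was the most negative of them, and the mean of the 7 differed by −0.08 (limma adjusted p = 0.814). The second brightest had MUT values of 11.88, 12.08 and 12.03 that all lay below WT values of 12.12, 12.25 and 12.11, with a difference of only −0.16.

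Ccnd1, the D cyclin most often named as a β-catenin target, read 10.44, 10.10 and 9.87 in MUT and 10.44, 10.21 and 10.35 in WT. MUT array 1 matched WT array 1, and the other MUT arrays were below all WT arrays. The difference was −0.19 (SE 0.17, 95% interval −0.59 to 0.20, limma adjusted p = 0.670). It was −0.35 without MUT array 1 and −0.0613 without MUT array 3. Its second brightest probe set stood at −0.39 (95% interval −0.81 to 0.02, adjusted p = 0.452), with 9.91, 9.37 and 9.49 in MUT against 9.90, 9.90 and 10.15 in WT, and the dimmest at 0.05. In fold terms, in the fit over all probe sets, the interval of the brightest Ccnd1 probe set ends at 1.16 and that of the dimmest at 1.46. The increase that lies outside the interval therefore depends on the probe set read.

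Ccnd3 read 9.05, 9.02 and 9.59 in MUT and 9.02, 9.34 and 9.17 in WT, a difference of 0.04 (SE 0.19, limma adjusted p = 0.941), and MUT array 3 alone was above the WT arrays. The other Ccnd3 probe sets were dim, with means over all arrays of 5.08 and 4.93, and their WT means, 4.78 and 4.83, lay below the background level. The brighter of these read 4.47, 5.75 and 5.93 in MUT, against 4.60, 4.86 and 4.87 in WT. MUT array 1 was the lowest of the 6 arrays and MUT arrays 2 and 3 were the highest. It was not called (adjusted p = 0.544, or 0.0706 without MUT array 1), and no size is read from it, since WT was not above background.

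Of the catalytic partners, Cdk4 read 11.63, 11.42 and 11.48 in MUT and 11.43, 11.72 and 11.67 in WT, so that MUT array 1 and WT array 1 each lay with the other group. The difference was −0.09 (SE 0.14, 95% interval −0.41 to 0.22, limma adjusted p = 0.807), and it ran from −0.18 without WT array 1 to −0.0373 without WT array 2. All 3 probe sets of Cdk4 were lower in MUT, between −0.17 and −0.09. Cdk4 is a known MYC target with E-boxes at its start site, and its window (chr10:127063285-127063584, plus strand) is shown with 4 CACGTG matches, beginning at positions −172, −118, −98 and −11, and 1 TCF/LEF core at −51 in capitals.
Cdk4: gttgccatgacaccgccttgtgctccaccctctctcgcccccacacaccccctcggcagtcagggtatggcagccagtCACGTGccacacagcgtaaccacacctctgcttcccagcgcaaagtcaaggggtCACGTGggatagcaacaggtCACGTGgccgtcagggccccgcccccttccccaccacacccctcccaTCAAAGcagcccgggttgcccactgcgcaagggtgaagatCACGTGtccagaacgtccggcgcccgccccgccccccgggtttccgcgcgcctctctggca
Of the other windows, that of Cdk6 held 1 E-box, and those of Ccnd3 and Cdkn1b held none of the letters searched.

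Cdk6, the alternative partner of the D cyclins, read 8.97, 8.86 and 9.08 in MUT and 9.17, 8.93 and 9.11 in WT, with overlapping groups and a difference of −0.10 (SE 0.13, limma adjusted p = 0.783), which was −0.17 without WT array 2 and −0.0476 without MUT array 2. Its 3 probe sets were all lower in MUT, from −0.42 to −0.08. The one at −0.42, the dimmest, read 7.50, 7.47 and 7.19 in MUT and 7.52, 8.15 and 7.77 in WT. Those groups did not overlap, but MUT array 1 and WT array 1 were almost equal, and the adjusted p was 0.453. Over the 28 probe sets the groups did not overlap for 3 (the second brightest of Ccnd2, the dimmest of Cdk6 and the brightest of Cdkn1b), against 17.5% of all probe sets tested, of which 8.45% were higher and 9.04% lower in MUT.

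**Figure D2:**
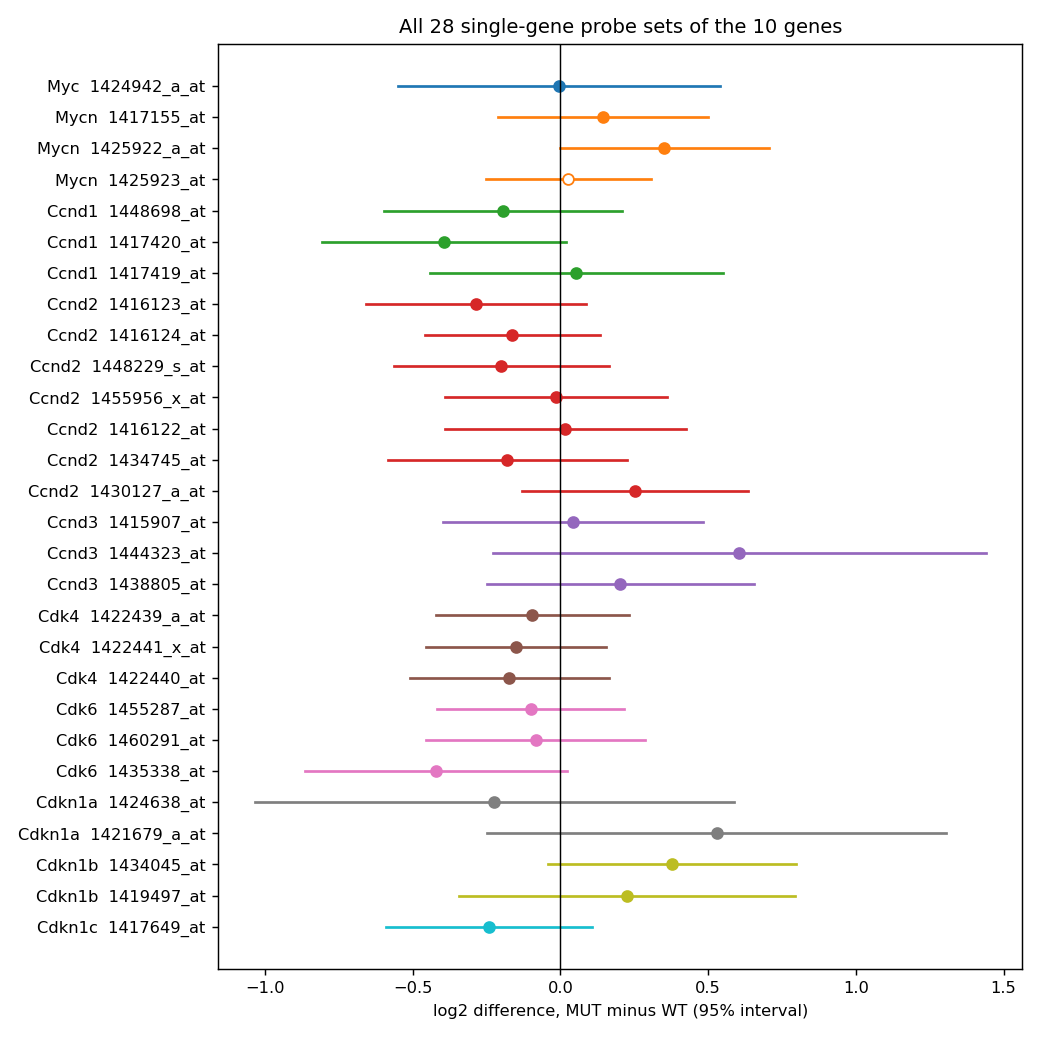
Log2 difference between MUT and WT (horizontal axis) for each of the 28 probe sets, with its 95% interval from limma, grouped and coloured by gene, brightest probe set first. Every interval includes 0, and the open point marks the Mycn probe set below the background level.

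Among the inhibitors, Cdkn1b had the largest difference of the 10 genes by brightest probe set. It encodes p27, which holds cyclin E and CDK2 in check and is abundant in cells that have left the cycle. It read 9.60, 9.39 and 10.04 in MUT, against 9.31, 9.31 and 9.28 in WT. The WT arrays were nearly identical (SD 0.020), and all MUT arrays lay above them but differed widely (SD 0.330). The difference was 0.38 (1.30-fold, SE 0.18, 95% interval −0.04 to 0.79, limma adjusted p = 0.465). It was 0.20 without MUT array 3 and 0.52 without MUT array 2. The other probe set of Cdkn1b read between 8.29 and 9.07 in MUT and between 8.24 and 8.74 in WT. There MUT array 1 lay with the lowest WT array and the other MUT arrays above all WT arrays, and the difference was 0.23 (95% interval −0.34 to 0.79).

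Cdkn1c encodes p57, an imprinted inhibitor of embryonic tissues, and had 1 probe set. It read 10.99, 10.66 and 10.68 in MUT and 10.87, 11.11 and 11.06 in WT. MUT arrays 2 and 3 were below all WT arrays and MUT array 1 was within their range. The difference was −0.24 (0.846-fold, SE 0.14, 95% interval −0.58 to 0.10, limma adjusted p = 0.548), or −0.35 without MUT array 1 (adjusted p = 0.331). Ccnd2, Ccnd1 and Cdkn1c thus had MUT array 1 nearest to the WT arrays or among them. Neuronal markers had the same feature: their mean over 8 genes was 0.05, −1.44 and −1.16 on MUT arrays 1, 2 and 3 and −0.24, −0.30 and 0.54 on WT arrays 1, 2 and 3, relative to the WT mean. It was not particular to neuronal markers. The mean of 16 glycolysis and low oxygen genes was 0.89, 1.45 and 1.475 on MUT arrays 1, 2 and 3. That of 17 DNA replication and mitosis genes was 0.03, −0.27 and −0.12. The mean of the 12 cardiac markers went the other way, at −0.93, −0.62 and −0.54. The part of these groups of genes in the values of Ccnd2, Ccnd1 and Cdkn1c was not tested.

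Cdkn1a encodes p21, the inhibitor induced by p53, and was the most variable member. Its brightest probe set read 8.15, 8.32 and 7.79 in MUT, against 7.49, 8.91 and 8.53 in WT. WT array 1 was the lowest and WT array 2 the highest of all 6, so the MUT arrays lay inside the WT range. The difference was −0.22 (SE 0.35, 95% interval −1.04 to 0.59, limma adjusted p = 0.824). It was −0.63 without WT array 1 (adjusted p = 0.403) and 0.08 without WT array 2. WT array 1 was also the WT array with Y-linked transcripts, as given above, and the one where visceral endoderm markers were low. Their mean over 6 genes was −2.20, −0.44 and 0.25 on MUT arrays 1, 2 and 3 and −1.70, 1.20 and 0.51 on WT arrays 1, 2 and 3. The part of either in Cdkn1a was not tested.

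The more upstream of 2 Cdkn1a windows (chr17:29090729-29091028, plus strand) holds the CATG pair, in capitals, which is shown because p53 acts on Cdkn1a through sites of this form.
Cdkn1a: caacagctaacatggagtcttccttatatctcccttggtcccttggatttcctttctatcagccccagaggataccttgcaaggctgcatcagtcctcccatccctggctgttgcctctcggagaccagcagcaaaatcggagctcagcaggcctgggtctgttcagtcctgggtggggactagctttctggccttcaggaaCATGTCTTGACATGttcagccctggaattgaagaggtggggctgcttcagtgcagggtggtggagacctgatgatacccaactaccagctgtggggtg
The window of the other start site held none of the letters searched. Which start site each probe set detects is not known here.

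The second Cdkn1a probe set went the other way. It read 7.71, 8.30 and 8.22 in MUT and 6.82, 8.16 and 7.66 in WT, a difference of 0.53 (95% interval −0.25 to 1.31, limma adjusted p = 0.569). It was 1.09 with the Y-linked transcripts as a covariate (adjusted p = 0.471), 0.17 without WT array 1 and 0.83 without WT array 2. Those transcripts were high on all MUT arrays and, within WT, on array 1 alone. The covariate fit thus sets MUT mainly against WT array 1, the lowest WT array for this probe set. Taken within each array, this probe set minus the brightest one was −0.44, −0.02 and 0.44 in MUT and −0.66, −0.75 and −0.87 in WT. All MUT arrays lay above all WT arrays, and the pair's separation in WT was steady although both probe sets varied widely there. To set this in proportion, the same within-array difference was fitted with limma for all 12882 pairs of a gene's brightest and a further probe set, both above the background level, a step added after the values were seen. The Cdkn1a pair differed between the groups by 0.75 (SE 0.23, unadjusted p = 0.0132 and adjusted p = 0.519), which does not pass, and no pair on the array was called. At an unadjusted p under 0.05 there were 1027 pairs (7.97%), and 12.8% of pairs had groups that did not overlap (5.44% higher and 7.33% lower in MUT).

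Ccnd2 showed a like spread among its probe sets. The dimmest read 10.31, 10.66 and 10.53 in MUT and 10.21, 10.48 and 10.06 in WT, a difference of 0.25, where the brightest gave −0.29. Their within-array difference was −1.92, −1.35 and −1.24 in MUT and −1.99, −1.95 and −2.19 in WT, with no overlap, although MUT array 1 was close to the WT arrays. The groups differed in it by 0.54 (SE 0.21, limma adjusted p = 0.594), which also does not pass. The brightest and dimmest had the lowest and highest differences of the 7 Ccnd2 probe sets. The sign of 0.54 was therefore set by the choice of pair. The direction given for Cdkn1a or Ccnd2 therefore depends on the probe set read. So does that of Ccnd1, whose dimmest probe set stood at 0.05 while the others were lower in MUT.

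**Figure D3:**
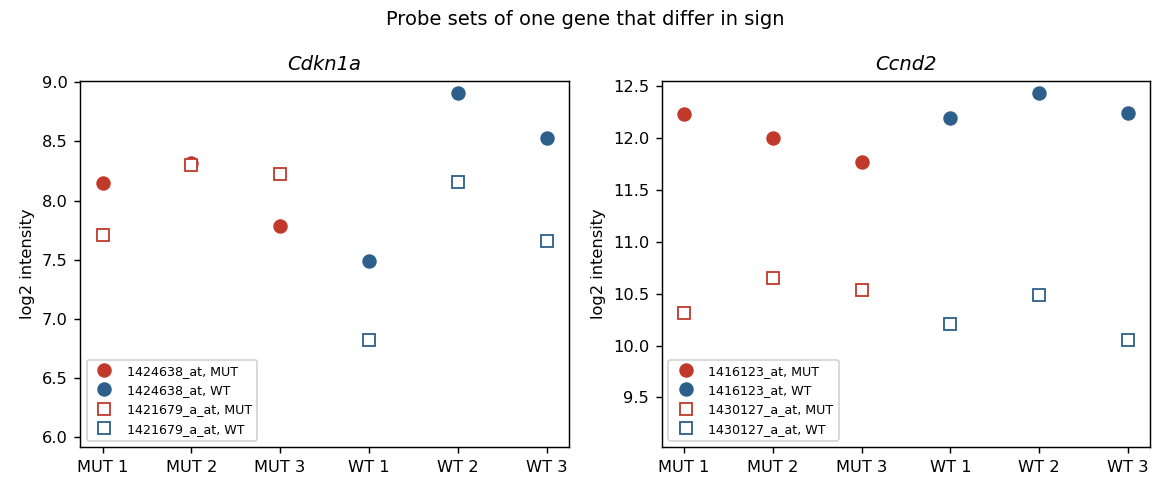
Log2 intensity (vertical axis) on each MUT (red) and WT (blue) array for the brightest probe set (filled circles) and a further one (open squares) of Cdkn1a and of Ccnd2. The Cdkn1a probe sets lie −0.66 to −0.87 apart on the WT arrays and between −0.44 and 0.44 apart on the MUT arrays.

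Leaving out each array in turn called none of the 10 genes. The unadjusted p fell under 0.05 for Ccnd2 and Cdkn1c without MUT array 1, for Cdkn1b without MUT array 2 and for Cdkn1a without WT array 1, and for none of the 10 when any other single array was left out. Over all genes the share with such a p was 14.7% without MUT array 1, 9.15% without MUT array 2 and 10.6% without WT array 1, so 1 or 2 of 10 genes is near the background. By their brightest probe sets, Ccnd1, Ccnd2, Cdk4, Cdk6 and Cdkn1c stayed lower and Mycn and Cdkn1b higher in MUT in all 6 cases. Myc, Ccnd3 and Cdkn1a changed sign in some. For Ccnd1 and Ccnd2 not every probe set was lower in MUT, as given above.

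**Figure D4:**
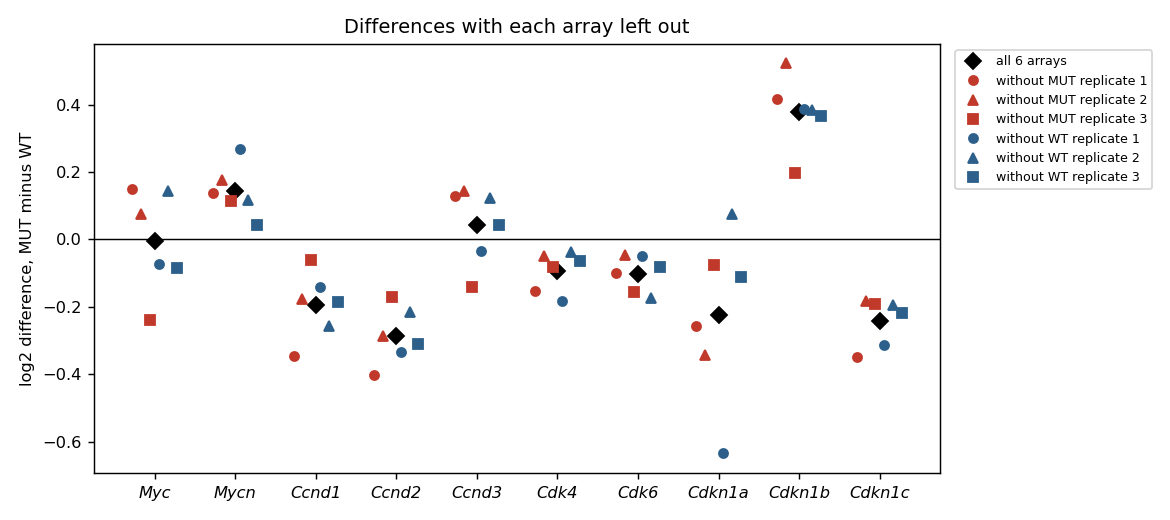
Log2 difference between MUT and WT (vertical axis) for each of the 10 genes with all 6 arrays (black diamond) and with each MUT (red) or WT (blue) array left out. Cdkn1b stays between 0.20 and 0.52, and Cdkn1a runs from −0.63 to 0.08.

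The rest of the G1/S machinery was read from a list of 27 genes, all measured. Of these 0 were called, 7 were higher and 20 lower in MUT, and the median difference was −0.14, against −0.03 over all genes. That median was −0.24 without WT array 3, and −0.0872, −0.0928 and −0.0893 without MUT array 2, WT array 1 and WT array 2. The smallest p belonged to Rbl2, the retinoblastoma relative p130 found in resting cells, at 0.76 (SE 0.16, limma adjusted p = 0.187), with 6.19 in MUT and 5.43 in WT. Next were Cdkn2c, an inhibitor of CDK4 and CDK6, at −0.34 (adjusted p = 0.346), and E2f2 at −0.42 (adjusted p = 0.401). The list's mean on MUT arrays 1, 2 and 3 was 0.05, −0.20 and −0.16, and on the WT arrays it lay between −0.04 and 0.03, relative to the WT mean.

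Genes downstream of the members or working with them also had small differences. Of 20 known MYC targets, 0 were called, 6 were higher and 14 lower, and the median was −0.09, or −0.14, −0.17 and −0.0524 without MUT array 1, WT array 3 and MUT array 2. Those with the smallest p were the nucleolar proteins Nop58 (−0.28) and Ncl (−0.26), and Cad, an enzyme of pyrimidine synthesis, at −0.51. Of 11 partners in the MYC network, 0 were called, with a median of −0.04, which lay between −0.20 and 0.0327 with single arrays left out. Among them Mga stood at 0.35, Mxi1, an antagonist of MYC, at 0.57 (adjusted p = 0.422) and Zbtb17 at −0.28. Of 17 measured DNA replication and mitosis genes 0 were called, 4 were higher and 13 lower, with a median of −0.11, which was −0.18 without MUT array 1 and −0.0290 without MUT array 2. Rrm2, a subunit of ribonucleotide reductase, stood at −0.40, Pcna, the sliding clamp of DNA polymerase, at −0.27 and Aurka, a mitotic kinase, at −0.29. The mean of these 17 genes was 0.03, −0.27 and −0.12 on MUT arrays 1, 2 and 3, and between −0.05 and 0.03 on the WT arrays. Of 11 measured p53 targets, the class to which Cdkn1a belongs, 0 were called, 6 were higher and 5 lower, and the median was 0.00. Those with the smallest p were Ccng1, a p53-induced cyclin, at 0.36, Sesn2 at 0.51 and Gadd45a at 0.26.

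The canonical Wnt feedback and target genes of the same cells are given for scale. All 11 measured were higher in MUT, with a median of 0.64, and 1 was called: Apcdd1, a membrane inhibitor of Wnt signalling, which rose by 1.82 (limma adjusted p = 0.0371). Dkk1 stood at 1.31 and Sp5 at 1.23 without passing. Of 16 glycolysis and low oxygen genes all were higher, with a median of 0.94, and Pfkp, Adm and Ndrg1 were called, at 2.65, 1.84 and 3.46. Over all genes 0.066% were called and 44.7% were higher in MUT. The Wnt and glycolysis lists were chosen with earlier results of these data known, so their counts and medians are no test. No cell type marker was called. All 10 endothelial markers had higher averages in MUT (median difference 0.86), and lower averages were found for all 8 neuronal markers (median −0.74) and all 7 measured primitive erythroid markers (median −0.21). The arrays overlapped for the erythroid markers. Relative to the WT mean, their mean was −0.46, −0.97 and 0.25 on MUT arrays 1, 2 and 3. On WT arrays 1, 2 and 3 it was 0.17, 0.23 and −0.39. The globins Hbb-bh1, Hbb-y and Hba-x read between 13.57 and 13.94 on average in both groups. What these other cells contribute to the values of the cell cycle genes was not tested.

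**Figure D5:**
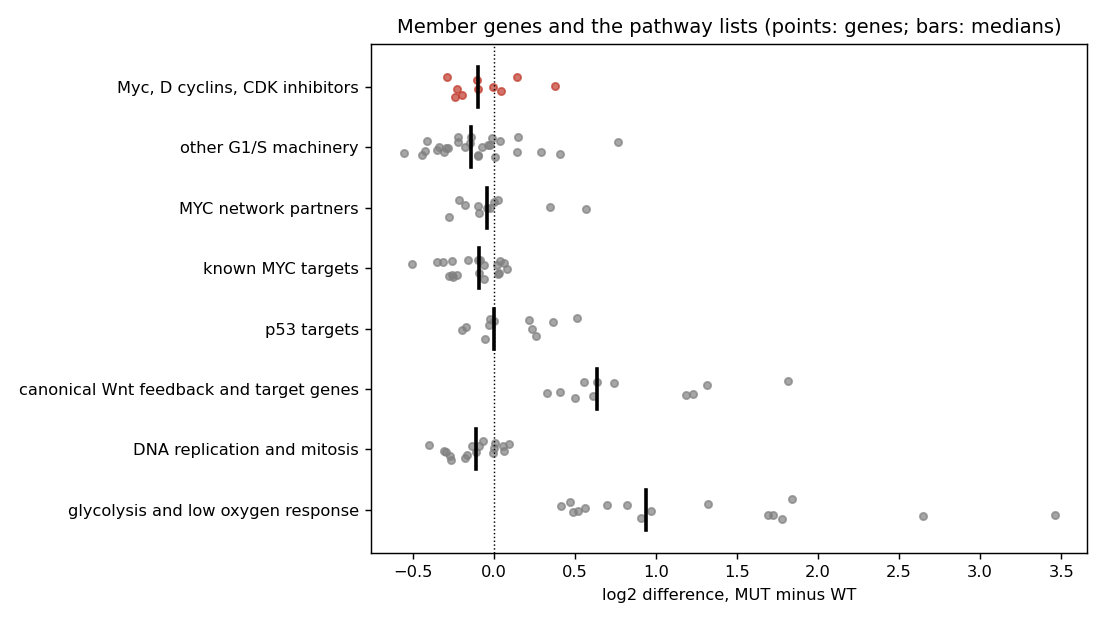
Log2 difference between MUT and WT (horizontal axis) of each gene (points) in the 10 genes described (red) and in the 7 pathway lists (grey), with the median of each as a black bar. The medians of the cell cycle and MYC lists lie between −0.14 and −0.04, beside 0.64 for the Wnt feedback and target genes and 0.94 for the glycolysis and low oxygen genes. Each gene is shown by its brightest probe set, and the lists were chosen with earlier results of these data known.

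The profiles most like those of 2 members were sought among 14125 other genes above the background level, as the smallest root mean square difference between gene-centred log2 values over the 6 arrays. For Cdkn1b, the member with the smallest p among those higher in MUT, they were Tbrg1 (0.0233), Papss1 (0.0542) and Fam234a (0.0673). For Ccnd2, the member with the smallest p among those lower, they were Tbc1d2b (0.0287), Dkc1 (0.0370) and 1700123O20Rik (0.0437). These are descriptions over 6 arrays.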

How the data were processed

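Total RNA of sorted cells was amplified with a whole-transcript kit for small inputs, labelled with biotin and hybridised to Affymetrix arrays, per the labels' protocols. The deposited values are log2 intensities for 45101 probe sets on 6 arrays, from 1.89 to 15.07. Their log2 base follows from this range, and what the authors did for background, summarisation and normalization is not given in the sources used here. Sorted values differed little between arrays (largest SD at a rank 0.0693), so no further scaling was done. Values aligned in this way cannot show a change shared by most genes.

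Gene names come from GEO's platform annotation, and RefSeq gene identifiers gave the present symbols (34741 of 34945 matched). Those naming several genes (932), unnamed here (9160) or controls (64) were not tested. For 9010 genes with several probe sets the one with the highest mean was used, and each probe set was also fitted. MUT and WT were compared in R 4.3.3 with the two-sided moderated test of limma 3.58.1 (functions lmFit and eBayes, 4 residual and 3.45 prior degrees of freedom). For 1 gene alone, exact permutation of these 6 arrays has a smallest p of 0.1. The fit was tested on simulated data.

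The members, lists and settings were chosen with earlier results of these data known. From each pathway list the 3 genes with the smallest p and any called gene are named. The markers, the Y-linked genes and Xist were picked for naming after their values were seen. Alternatives tried were quantile normalization, centring on array medians, the replicate number as a block, array weights, a Y-linked covariate, a trended robust prior, other choices of probe set, dropping the dimmest 40%, an adjusted p of 0.01, and dropping each array in turn. Coordinates are those of the RefSeq promoter table only, since no build is named for the array. The number of arrays limits the precision.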

Additional observations from a re-analysis of the deposited data

How the results depend on the processing

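No member gene, probe set or probe-set pair was called under any alternative run. The lowest adjusted p over 16 alternatives was 0.304 for genes, and over 14 alternatives 0.0706 for probe sets. Of 160 values of the 10 genes under the alternatives, 13 had the opposite sign to that reported. With the Y-linked covariate Myc was 0.12, Mycn −0.0560, Cdk4 0.0663 and Cdkn1a 0.43. That covariate was high on all MUT arrays but, within WT, on array 1 alone. Its fit therefore sets MUT mainly against WT array 1. With array weights Myc was 0.0626. For Cdkn1a the most variable probe set gave 0.53 and the mean of its probe sets 0.15. Leaving out single arrays gave −0.24 to 0.15 for Myc, −0.14 to 0.14 for Ccnd3 and −0.635 to 0.0752 for Cdkn1a. Quantile normalization and median centring kept the sign of all 10. The cause was not tested.

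The 12 genes called higher over the whole array became 6 with median centring, 1 with the most variable probe set, 1 with the mean of probe sets, 1 with the Y-linked covariate, 0 at a threshold of 0.01 and 0 to 81 with single arrays left out, and the 0 called lower 0 to 11. The 8 probe sets called higher became 0 with quantile normalization, 14 without the dimmest 40%, 15 with a trended robust prior, 13 with array weights, 0 with the Y-linked covariate, 0 at 0.01 and 0 to 89 without single arrays; the 0 called lower became 1 with a trended robust prior and 0 to 11 without single arrays. Both highest counts came without MUT array 1. Same-numbered arrays of MUT and WT correlated in their deviations from the group means at 0.108, −0.0751 and −0.0161, so the numbers are not taken to pair the arrays. With replicate number as a block 0 genes and 1 probe set were called higher, and 0 members. The p53 target median, 0.00, was 0.22 without the dimmest 40%, and that of the MYC network was 0.11 with the Y-linked covariate. With the most variable probe set per gene the median was −0.22 for the MYC network and −0.25 for the known MYC targets.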
